A study of Mus musculus with 16 samples.

Results

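A set of 9 genes central to pancreatic cancer biology was followed in mouse tumours treated with ADH-503, a small molecule that acts on the leukocyte integrin CD11b. They are the tumour suppressors Trp53, Cdkn2a, Cdkn2b and Smad4, the oncogene Myc, and 4 p53 target genes, Cdkn1a, Mdm2, Ccng1 and Bax. Members were chosen by their symbol in the probe annotation of the arrays, which gave 19 probes for the 9 genes out of 56605 probes and 27308 gene symbols on the array. Each gene is represented below by its probe with the highest mean signal, and its other probes are given beside it.

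All 16 samples were whole tumours, grown orthotopically in the pancreas of female mice of the strain C57BL/6. The sample titles call the compound LA1. Vehicle-treated tumours gave 6 arrays with no time label, ADH-503 treatment gave 5 arrays at 48 h, and the same treatment gave 5 arrays at 10 days. The labels name neither the tumour cell line nor its alleles, so whether the tumour cells carry deleted or mutant copies of any of these genes is not given in the sources used here, and host cells keep their own copies. Separate animals are not stated either, so p-values measure only how far these samples spread, which may be technical in part. The titles of vehicle replicate 2 and 48 h replicate 5 carry the same ID number. Values are log2 signals minus the 75th percentile of the same array, so 0 is the level of that percentile and 1 unit is a 2-fold step.

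Pancreatic ductal adenocarcinoma commonly loses the p53 transcription factor, the INK4/ARF locus and SMAD4, the shared signal transducer of the TGF-beta pathway. Cdkn2a encodes 2 unrelated proteins from overlapping transcripts: p16INK4a, which keeps CDK4 and CDK6 from phosphorylating RB, and p19ARF, which holds back MDM2 and so spares p53. Cdkn2b, beside it on the chromosome, encodes the related inhibitor p15INK4b. Active p53 switches on Cdkn1a (the CDK inhibitor p21), Mdm2 (its own ubiquitin ligase), Ccng1 (cyclin G1) and Bax (a pore-forming killer of mitochondria), so these targets are often read as its output. An mRNA level says nothing of whether the encoded p53 protein is mutant or active.

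What each probe can read follows from its sequence and place, given here 5′ to 3′ with positions on mouse build mm9 from the file annotation. The single Trp53 probe lies at chr11:69403134-69403193 on the plus strand, and that of Myc with the highest signal at chr15:61820925-61820984 on the plus strand. The Bax and Mdm2 probes shown each span an intron, so they cover spliced transcript: the Bax probe reaches over chr7:52721469-52721624 and the Mdm2 probe over chr10:117139375-117142253, both on the minus strand.
Trp53: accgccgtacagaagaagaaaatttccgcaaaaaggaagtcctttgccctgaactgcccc
Myc: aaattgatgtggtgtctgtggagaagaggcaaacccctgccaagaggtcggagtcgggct
Bax, second probe: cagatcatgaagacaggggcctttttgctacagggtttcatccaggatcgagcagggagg
Mdm2, second probe: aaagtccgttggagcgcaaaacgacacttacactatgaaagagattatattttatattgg

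For Cdkn2a and Cdkn2b the first 30 bases of each of the 2 probes are shown, since these genes varied most and their probes can be set against each other. The Cdkn2a probes lie 140 bases apart, at chr4:88920405-88920464 and chr4:88920545-88920604, and the Cdkn2b probes 161 bases apart, at chr4:88952437-88952496 and chr4:88952276-88952335, all on the minus strand. Some 32032 bases separate the brighter probes of the 2 genes. Both Cdkn2a probes are assigned to the same transcript record and lie in its last part, which the p16INK4a and p19ARF transcripts share, so the 2 products cannot be told apart here.
Cdkn2a, brighter probe: ggcatgagaaactgagcgaaggcggccgcg
Cdkn2a, dimmer probe: cacttctagcgatgctagcgtgtctagcat
Cdkn2b, brighter probe: catgtgtggggattcacctgcaaaatggca
Cdkn2b, dimmer probe: ccagtgatgaattgtagtggtagcaggtta

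Of the 19 probes, 18 were well above background on all 16 arrays and entered the test. It covered 46088 probes, which include those of 22742 named genes and others without a gene name. The dimmer Cdkn2a probe was well above background on 2 arrays only and was not tested. No spot was saturated on any array, and 16 arrays limit the precision of every value below. Over all probes, any 2 arrays correlated at r between 0.953 and 0.979. They lie on 2 slides. Of the 8 arrays on slide 1 only 1 was vehicle, beside 4 at 48 h and 3 at 10 days, whereas slide 2 carried 5 vehicle arrays, 1 at 48 h and 2 at 10 days. Slide and group are therefore partly mixed up.

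None of the 9 genes differed between the groups past the threshold, an adjusted p of 0.05 in limma with Benjamini-Hochberg adjustment over all probes tested. The background has to be read beside this: 0% of all probes passed in any of the 3 comparisons. At an unadjusted p under 0.05, 0 of the 18 member probes were counted in each comparison, where 2.53% of all probes were at 48 h against vehicle, 3.55% at 10 days against vehicle and 3.47% at 10 days against 48 h. There was also no member probe whose groups did not overlap, against 0.171%, 0.228% and 0.484% of all probes in those comparisons. Both comparisons with vehicle share the same 6 control arrays.

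The direction of the small differences was mixed at 48 h and one-sided at 10 days. At 48 h the log2 change from vehicle was above 0 for 5 genes and below 0 for 4, where 47.4% of all probes lay above 0 and 52.6% below, with a median of 0.0015 against -0.01 for all probes. At 10 days it was below 0 for all 9 genes by their brightest probe, and for 17 of the 18 probes, where 52.8% of all probes lay below 0 and 47.2% above; the median over the 9 genes was -0.12 against -0.01 for all probes. Against 48 h, the 10 day tumours were lower for 8 genes and higher for Mdm2, where 50.4% of all probes were lower and 49.6% higher, with a median of -0.18. The 95% confidence interval of each of these differences included 0, and within slides the direction was not kept: against vehicle at 10 days, 5 of the 9 genes were above 0 on slide 1 and 3 were on slide 2. Because whole tumours were measured, fewer cells of a type and less RNA per cell cannot be told apart in any of these values.

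**Figure D1:**
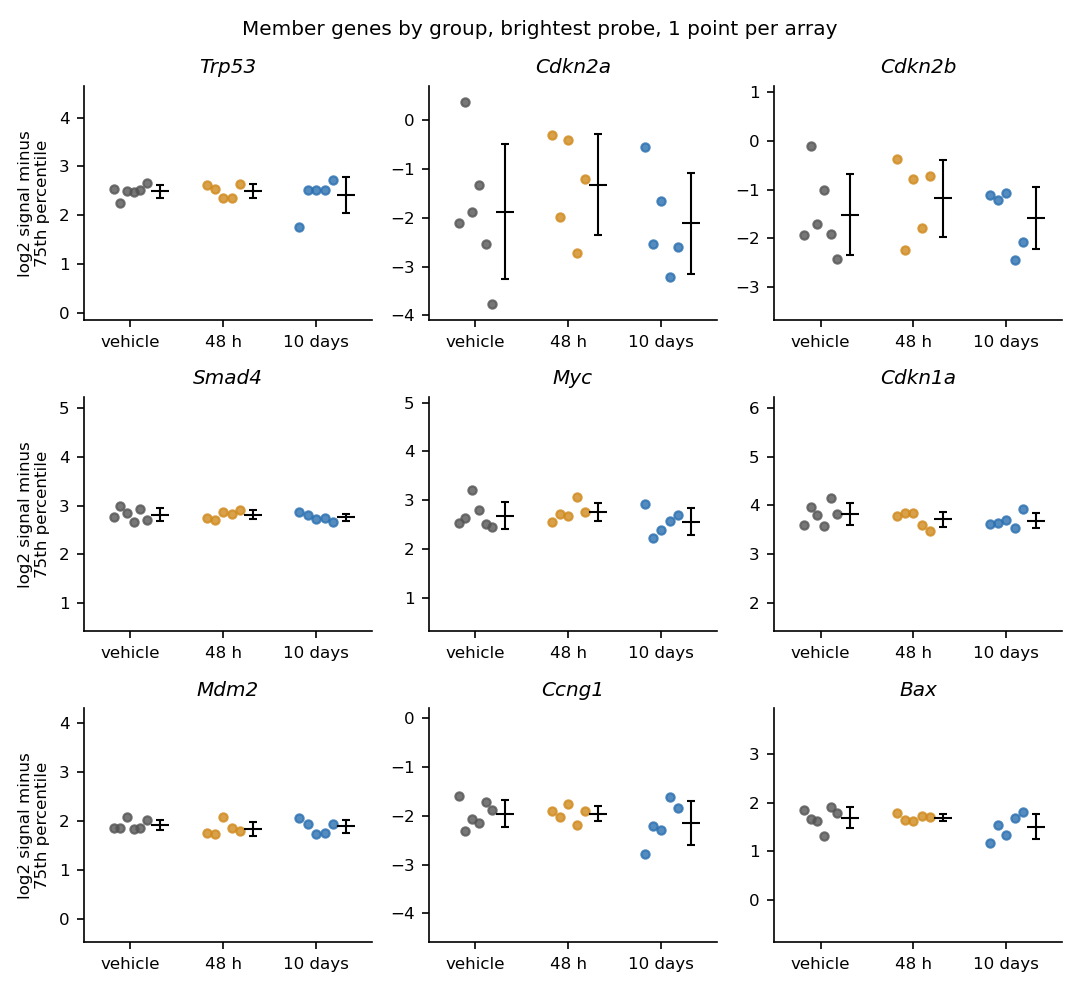
Each panel shows one member gene by its brightest probe; the vertical axis is the log2 signal minus the 75th percentile of the array, over the same span of 4.8 units in every panel, and the horizontal axis the group. Points are single arrays and the black mark with bars is the group mean and SD; Cdkn2a and Cdkn2b spread widely inside every group, while Smad4 and Mdm2 hardly vary.

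Trp53, the gene of p53, had a signal of 2.25, 2.51 and 2.66 as the lowest, median and highest of the 6 vehicle arrays. The 5 arrays at 48 h gave 2.61, 2.53, 2.34, 2.35 and 2.65. At 10 days the values were 1.77, 2.52, 2.51, 2.52 and 2.72. The groups overlapped throughout, and a single array, 10 days replicate 1, lay below all the others while the other 4 of its group sat inside or just above the vehicle range. Trp53 changed by 0.01 ± 0.15 (SE) at 48 h and by -0.08 ± 0.15 at 10 days against vehicle in limma (adjusted p = 0.9999 and 0.9995), and without 10 days replicate 1 the latter became 0.08. As folds, the 95% confidence intervals ran from 0.807 to 1.25 at 48 h and from 0.76 to 1.18 at 10 days. Neither interval reached a 2-fold difference in either direction.

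The 4 p53 targets had log2 changes below 0 at 10 days by their brightest probes, none of them past the threshold. Cdkn1a, which encodes the p21 brake on CDK2, stood at 3.57, 3.81 and 4.16 (lowest, median, highest) in vehicle. Its values at 48 h were 3.79, 3.85, 3.84, 3.61 and 3.48, and at 10 days 3.62, 3.65, 3.71, 3.54 and 3.93. The highest array was a vehicle one and the lowest a 48 h one, with all 3 groups overlapping over most of their ranges. The log2 change was -0.11 ± 0.12 at 48 h and -0.13 ± 0.12 at 10 days (limma, adjusted p = 0.9999 and 0.9995). The second Cdkn1a probe had group means of 0.48 in vehicle, 0.24 at 48 h and 0.44 at 10 days, with SDs of 0.71 to 0.75. The third and dimmest had means of -2.93, -3.37 and -3.39 in the same order, with SDs of 0.43 to 0.54.

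Mdm2, the ligase that p53 induces and that then degrades p53, varied even less, from 1.84 through a median of 1.86 to 2.08 in vehicle. At 48 h it was 1.74, 1.74, 2.08, 1.85 and 1.78, and at 10 days 2.07, 1.93, 1.74, 1.75 and 1.95. Lows and highs fell in both treated groups, and the whole range over 16 arrays was 1.27-fold. Its log2 change was -0.08 ± 0.10 at 48 h and -0.03 ± 0.10 at 10 days. The second Mdm2 probe, the intron-spanning one printed above, gave -0.25 ± 0.13 at 48 h and -0.27 ± 0.13 at 10 days, with unadjusted limma p of 0.0788 and 0.0601, the smallest of any member probe in those comparisons. Its vehicle arrays lay close together, with an SD of 0.07 (n = 6) against 0.27 at 48 h (n = 5) and 0.23 at 10 days (n = 5), and 1 of the 5 treated arrays at each time stood above the vehicle mean.

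Ccng1, cyclin G1, ranged in vehicle from -2.31 through -1.98 to -1.60. The arrays at 48 h read -1.90, -2.03, -1.77, -2.18 and -1.91, all inside the vehicle range. Those at 10 days read -2.79, -2.21, -2.28, -1.61 and -1.84, again with replicate 1 below every other array. The log2 change was -0.0041 ± 0.19 at 48 h and -0.19 ± 0.19 at 10 days. Bax, the apoptosis effector of the BCL-2 family, was 1.32, 1.73 and 1.90 in vehicle by the same summary. It read 1.78, 1.65, 1.62, 1.72 and 1.70 at 48 h, the tightest of its groups with an SD of 0.06, and 1.17, 1.54, 1.34, 1.69 and 1.81 at 10 days. Of the 5 arrays at 10 days 4 lay below the vehicle mean and 10 days replicate 1 was the lowest of all 16. Bax differed by 0.0015 ± 0.13 at 48 h and by -0.18 ± 0.13 at 10 days against vehicle, and its second probe by -0.17 ± 0.18 and -0.30 ± 0.18 (limma, all adjusted p at or above 0.9995).

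Smad4, which pairs with receptor-activated SMADs downstream of TGF-beta, was the steadiest member by its brightest probe. Vehicle arrays ran from 2.66 through 2.81 to 2.98. The 48 h arrays read 2.74, 2.70, 2.87, 2.84 and 2.91, and the 10 day arrays 2.86, 2.80, 2.72, 2.75 and 2.67. Every treated array lay inside the vehicle range, and the log2 change was -0.0046 ± 0.09 at 48 h and -0.06 ± 0.09 at 10 days. The 3 other Smad4 probes changed by 0.02 to 0.10 at 48 h and by -0.11 to 0.09 at 10 days. Over the 16 arrays the SD of the brightest probe was 0.10, and only 0.534% of tested probes had a smaller one. The SDs of the 3 other Smad4 probes were 0.13, 0.14 and 0.26.

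Myc, the growth-promoting transcription factor, had vehicle values of 2.45, 2.59 and 3.20 as lowest, median and highest. It stood at 2.55, 2.73, 2.68, 3.07 and 2.77 at 48 h, and at 2.93, 2.22, 2.39, 2.57 and 2.71 at 10 days. The highest array was a vehicle one and the lowest 2 were from 10 days, but the groups overlapped. Its log2 change was 0.07 ± 0.16 at 48 h and -0.12 ± 0.16 at 10 days, and -0.20 ± 0.17 between the treated groups. The other Myc probe gave 0.12 ± 0.16 and -0.0089 ± 0.16 against vehicle.

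**Figure D2:**
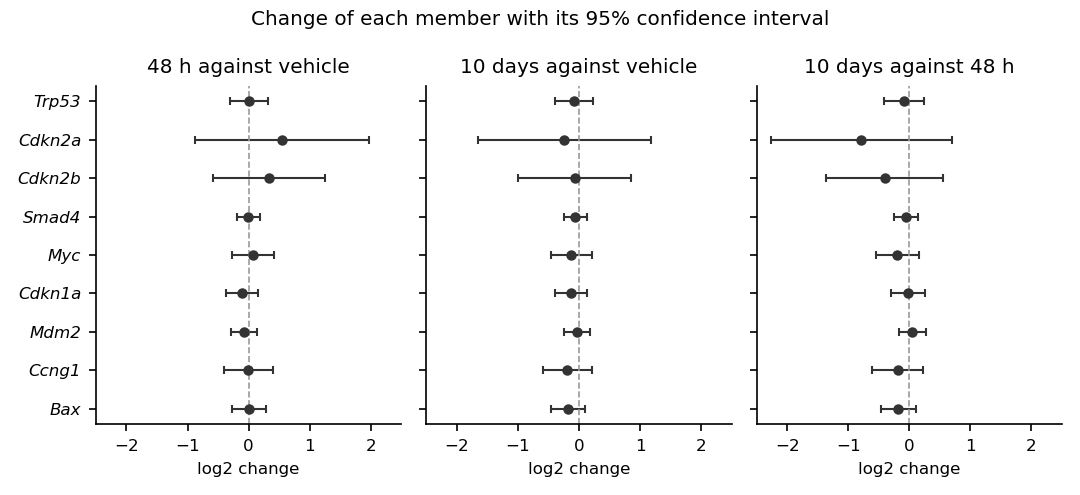
Points are the log2 change of each member by its brightest probe in the 3 comparisons and bars the 95% confidence interval from limma; the dashed line marks no change. All 27 intervals cross the line, and those of Cdkn2a and Cdkn2b are the widest, reaching from -0.87 to 1.97 for Cdkn2a at 48 h.

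The INK4/ARF locus behaved otherwise: its genes differed widely from array to array inside every group. Cdkn2a had vehicle values of -3.77, -1.99 and 0.37 (lowest, median, highest). At 48 h it was -0.30, -1.98, -0.42, -2.71 and -1.21, and at 10 days -0.56, -2.54, -1.65, -3.22 and -2.61. The highest and the lowest of all 16 arrays were both vehicle, replicates 2 and 6, and they lay 17.7-fold apart. Its SD over arrays was 1.14, higher than for 93.5% of tested probes. The group means therefore had wide errors, and the log2 change was 0.55 ± 0.67 at 48 h, -0.24 ± 0.67 at 10 days and -0.79 ± 0.70 between 48 h and 10 days (limma, adjusted p = 0.9999, 0.9995 and 0.9997). As a fold the first of these could lie anywhere from 0.547 to 3.92.

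Cdkn2b had vehicle values of -2.41, -1.81 and -0.12. Its 48 h arrays read -0.37, -2.23, -0.79, -1.78 and -0.73, and its 10 day arrays -1.11, -1.22, -1.07, -2.44 and -2.08. Vehicle replicate 2 was again the highest array, with 48 h replicate 1 next for both genes, and the whole range was 5.01-fold. The log2 change was 0.33 ± 0.43 at 48 h and -0.07 ± 0.43 at 10 days. The dimmer Cdkn2b probe had group means of -2.05 in vehicle, -1.78 at 48 h and -2.21 at 10 days, with SDs of 0.84 to 0.98. Against vehicle at 10 days, the sign of the difference was opposite on the 2 slides for both genes: Cdkn2a differed by 0.52 on slide 1 and by -1.08 on slide 2, and Cdkn2b by 0.79 and -0.83, with 1 vehicle array on the first slide. The dimmer Cdkn2a probe passed background on vehicle replicate 2 and 48 h replicate 1, the same pair of arrays on which the brighter probe was highest.

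Across the 16 arrays Cdkn2a and Cdkn2b went up and down together. Their signals correlated at r = 0.892 and rho = 0.891 over the 16 arrays, each with a permutation p of 1e-05, the smallest that 100000 permutations can give, and an adjusted p of 0.00036 over the 36 pairs of members. Within the slides r was 0.739 (n = 8) and 0.971 (n = 8), and without the 2 arrays farthest from the Cdkn2a median it was 0.835. Leaving out any single array kept r between 0.858 and 0.924. The 2 probes of Cdkn2b correlated at r = 0.936 (permutation p = 1e-05, adjusted p = 0.00013 over 13 pairs of probes of one gene), the only such pair to pass. Points of these correlations share the array, its labelling and its cell makeup.

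Both genes also moved with the markers of ductal and tumour epithelium. The mean of 12 such markers, among them the keratins Krt7, Krt8, Krt18 and Krt19, the mucin Muc1 and the ductal transcription factor Sox9, spanned -1.30 to 1.04 in vehicle, -2.28 to 0.84 at 48 h and -2.25 to 0.07 at 10 days. It correlated with Cdkn2a at r = 0.87 (permutation p = 6e-05, adjusted p = 0.00594 over 99 pairs of a member and a marker list) and rho = 0.953 (p = 1e-05), and with Cdkn2b at r = 0.806 (permutation p = 0.00023, adjusted p = 0.0114) and rho = 0.824 (p = 0.00016). Within slides r was 0.842 and 0.88 for Cdkn2a and 0.584 and 0.939 for Cdkn2b (n = 8 each), and without the 2 farthest arrays 0.883 and 0.686. For Cdkn2b the adjusted permutation p was 0.0673 when the 2 arrays whose titles carry the same ID number, vehicle replicate 2 and 48 h replicate 5, were left out. Vehicle replicate 2 had the highest marker mean of all 16 arrays, and 48 h replicate 1 the next.

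The single markers make up the mean above, so they restate it gene by gene and add no separate support. The share of all genes that correlate as closely was not counted. Genes outside the list, such as Pamr1 (r = 0.95), came closer to Cdkn2a than any of the 12. All 12 correlated above 0 with Cdkn2a, 11 of them past an adjusted permutation p of 0.05 over 38 pairs, with a median r of 0.823. Krt18 (r = 0.879), Krt19 (r = 0.879) and Muc1 (r = 0.875) were the closest, while the adhesion genes Epcam (r = 0.558) and Cdh1 (r = 0.514) were the least so. With Cdkn2b 10 of the 12 passed, Mmp7 (r = 0.847) and Muc1 (r = 0.80) being the closest. Of 9 other genes listed for the locus 7 entered the test, its Polycomb-group and other repressors and its neighbour Mtap. None of the 7 passed with either gene. Mtap, the next gene along the chromosome, correlated with Cdkn2a at r = 0.302 and with Cdkn2b at r = 0.145 (permutation p = 0.253 and 0.59), and Bmi1, the best-known Cdkn2a repressor, at r = 0.123 and 0.20.

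The epithelial markers themselves did not differ between groups past the threshold. At 48 h 9 of the 12 had a log2 change above 0, with a median of 0.15. At 10 days 11 of 12 were below 0 and 1 above, with a median of -0.51. Of all genes 47.6% and 46.8% lay above 0 in those comparisons, with medians of -0.0089 and -0.01. Cdkn2a and Cdkn2b had log2 changes above 0 at 48 h and below 0 at 10 days too, but so did Trp53, Myc and Bax. For Cdkn2a and Cdkn2b the sign at 10 days was also opposite on the 2 slides, as given above. The epithelial mean at 10 days differed by slide too. On slide 1, replicates 1 and 3 (0.07 and -0.05) lay above the 1 vehicle array (-0.63), and replicate 2 lay below it. On slide 2, replicates 4 and 5 (-1.97 and -2.25) lay below all 5 vehicle arrays, the lowest of which was -1.30. The parts of slide and of the epithelial share in the values of Cdkn2a and Cdkn2b were not tested.

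**Figure D3:**
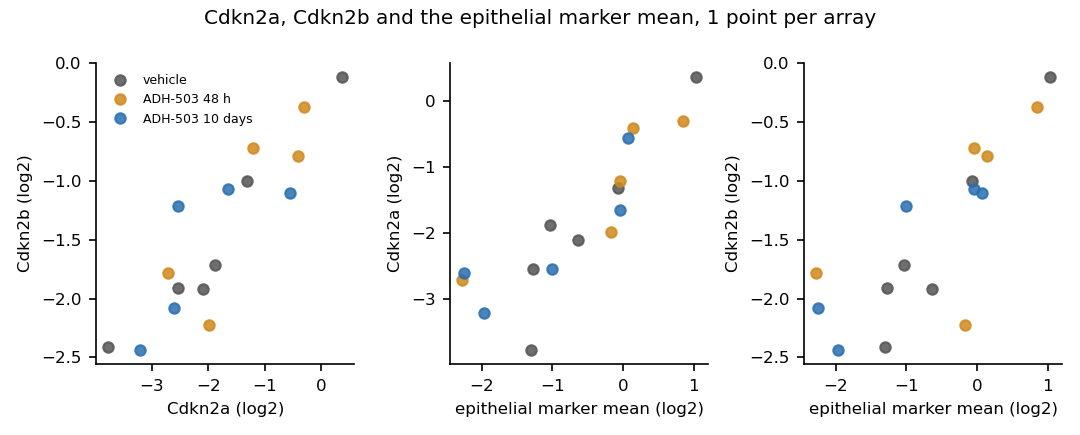
Each point is one array, coloured by group; axes are log2 signals relative to the 75th percentile of the array, with the mean of 12 epithelial markers on the horizontal axis of the middle and right panels. The 3 groups are mixed along each rising cloud, with vehicle replicate 2 at its top right.

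The 3 RefSeq start regions of the locus (build GRCm38.p6) are shown because its genes moved together. Each is the 250 bases before a start site, written 5′ to 3′ on the minus strand, with matches to GGGCGG (or its reverse complement) in capitals; the motif occurs in 32.7% of 32851 such windows. The regions lie at chr4:89294620-89294869 and chr4:89282193-89282442 for Cdkn2a and chr4:89311033-89311282 for Cdkn2b. The upstream Cdkn2a region had a GC content of 78.4% and 40 CpG pairs, against medians of 52.4% and 6 over all windows, and held 2 matches. The downstream one had 60.0% and 7 CpG pairs and the Cdkn2b region 53.6% and 12, both with no match.
Cdkn2a, upstream start: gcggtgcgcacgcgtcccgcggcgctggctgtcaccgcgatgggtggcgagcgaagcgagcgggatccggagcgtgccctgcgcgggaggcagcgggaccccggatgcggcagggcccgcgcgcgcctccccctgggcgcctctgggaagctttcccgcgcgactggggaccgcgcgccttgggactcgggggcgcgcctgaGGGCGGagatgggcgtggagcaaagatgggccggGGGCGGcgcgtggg
Cdkn2a, downstream start: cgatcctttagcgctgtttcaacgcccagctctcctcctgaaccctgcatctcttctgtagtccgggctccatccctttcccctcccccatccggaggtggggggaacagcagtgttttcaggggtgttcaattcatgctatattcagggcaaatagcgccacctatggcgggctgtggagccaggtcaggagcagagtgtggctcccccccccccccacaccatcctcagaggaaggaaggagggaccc
Cdkn2b: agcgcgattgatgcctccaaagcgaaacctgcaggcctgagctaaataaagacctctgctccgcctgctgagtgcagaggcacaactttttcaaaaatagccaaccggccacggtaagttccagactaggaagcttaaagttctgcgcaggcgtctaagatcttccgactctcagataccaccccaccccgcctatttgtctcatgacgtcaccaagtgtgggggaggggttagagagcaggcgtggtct

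Among p53 and its targets, 1 pair of 6 target pairs went together. Ccng1 and Bax correlated at r = 0.79 (permutation p = 0.00028, adjusted p = 0.00504 over 36 pairs) and rho = 0.694 (permutation p = 0.00384, adjusted p = 0.0608), with r = 0.875 and 0.573 within the slides (n = 8 each) and 0.605 without the 2 farthest arrays. The relation leaned on 10 days replicate 1, without which r was 0.648 and the adjusted permutation p 0.145. That array was the lowest of 16 for Trp53, Ccng1 and Bax and for the mean of 12 proliferation markers, but for Cdkn1a it ranked 6 from the bottom and for Mdm2 14. Over all tested probes its mean correlation with the other arrays was 0.957, the 12th lowest of 16, where all arrays lay between 0.952 and 0.960. Its share of probes well above background, 81.2%, was the highest of the 16. Whether this array differed as a whole was not tested.

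Trp53 itself correlated with Ccng1 at r = 0.724 and with Bax at r = 0.64, neither past the threshold (adjusted permutation p = 0.0576 and 0.0973), and at 0.392 and 0.299 without 10 days replicate 1. With Cdkn1a and Mdm2 it correlated at r = 0.121 and -0.378. Cdkn1a and Mdm2, 2 classical p53 targets, correlated at r = 0.181 with each other, and neither passed with Ccng1 or Bax. Of the 36 pairs of members, 2 passed in all: Cdkn2a with Cdkn2b, and Ccng1 with Bax. The share of pairs of other genes that correlate as closely was not counted.

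**Figure D4:**
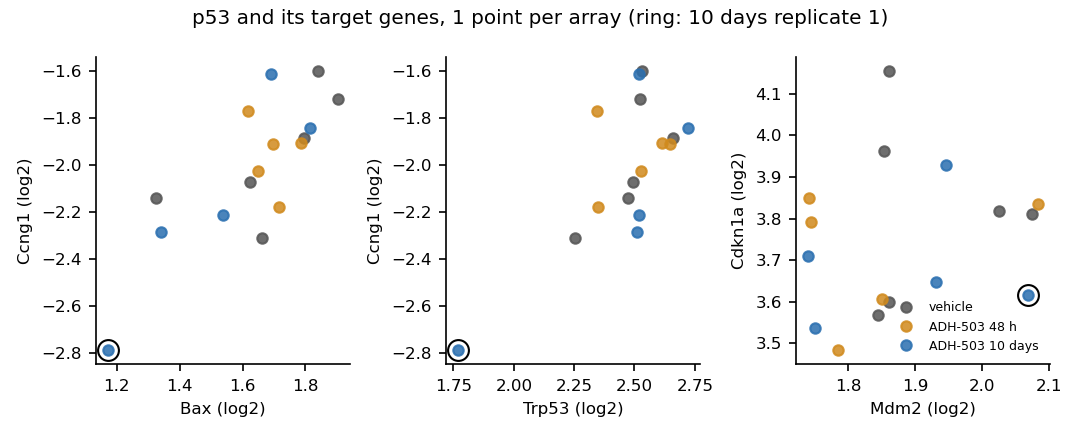
Each point is one array by its log2 signals relative to the 75th percentile of the array, for Bax and Ccng1, Trp53 and Ccng1, and Mdm2 and Cdkn1a; the ring marks 10 days replicate 1. The ringed array lies apart at the lower left in the first 2 panels, and the third shows no trend (r = 0.181).

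The start regions of Ccng1 (chr11:40755287-40755536) and Bax (chr7:45466899-45467148), both on the minus strand of GRCm38.p6, are printed because these genes went together and are known p53 targets. Capitals mark a match to the p53 half-site consensus, on either strand, found in 7.13% of all windows. Each held 1 match. The windows searched were 9, for 7 of the member genes, with 2 each for Cdkn2a and Cdkn1a and none for Myc and Smad4. In all 5 of the 9 windows held one or more, those of Trp53, Mdm2 and the upstream Cdkn1a start being the others, and the Cdkn2a and Cdkn2b windows held none. Of the other motifs searched on both strands, CACGTG stood in the Bax window and in 6.02% of all windows, TATAAA in that of Trp53 and in 12.4%, TTTCCCGC in 1 Cdkn2a window and in 0.895%, and TGAGTCA in none of the 9 windows and in 4.46%. A match describes the letters only.
Ccng1: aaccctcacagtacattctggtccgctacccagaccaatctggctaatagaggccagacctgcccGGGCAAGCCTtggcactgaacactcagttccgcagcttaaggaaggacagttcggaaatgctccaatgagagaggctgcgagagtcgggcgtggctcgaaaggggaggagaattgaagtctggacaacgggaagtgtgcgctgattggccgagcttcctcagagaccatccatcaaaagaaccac
Bax: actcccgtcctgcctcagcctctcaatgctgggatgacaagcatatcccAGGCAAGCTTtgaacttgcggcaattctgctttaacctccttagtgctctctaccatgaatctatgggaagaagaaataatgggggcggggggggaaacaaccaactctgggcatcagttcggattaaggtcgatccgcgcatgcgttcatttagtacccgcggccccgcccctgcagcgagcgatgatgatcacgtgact

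With the marker lists, 4 of 99 pairs passed: the 2 described, Ccng1 with proliferation, and Mdm2 with T cells. The share of all genes that correlate as closely with these lists was not counted. Ccng1 and the proliferation mean correlated at r = 0.764 (permutation p = 0.00046, adjusted p = 0.0152) and rho = 0.682 (adjusted p = 0.15), with r = 0.875 and 0.399 within slides and 0.555 without the 2 farthest arrays; without 10 days replicate 1 the adjusted permutation p was 0.15 and without vehicle replicate 1 it was 0.0535. Mdm2 and the T cell mean correlated at r = 0.724 (permutation p = 0.00114, adjusted p = 0.0282) and rho = 0.656 (adjusted p = 0.184), with 0.674 and 0.807 within slides and 0.536 without the 2 farthest arrays. In the authors' quantile-normalized values the latter was r = 0.527 with an adjusted permutation p of 0.522, and with normexp and quantile normalization r = 0.444 with 0.654. It also missed the threshold without any one of 7 arrays, 10 days replicates 1, 3 and 4, 48 h replicates 2 and 3, and vehicle replicates 1 and 3 (adjusted permutation p from 0.0535 to 0.177). Myc, Smad4, Cdkn1a, Trp53 and Bax passed with no marker list.

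**Figure D5:**
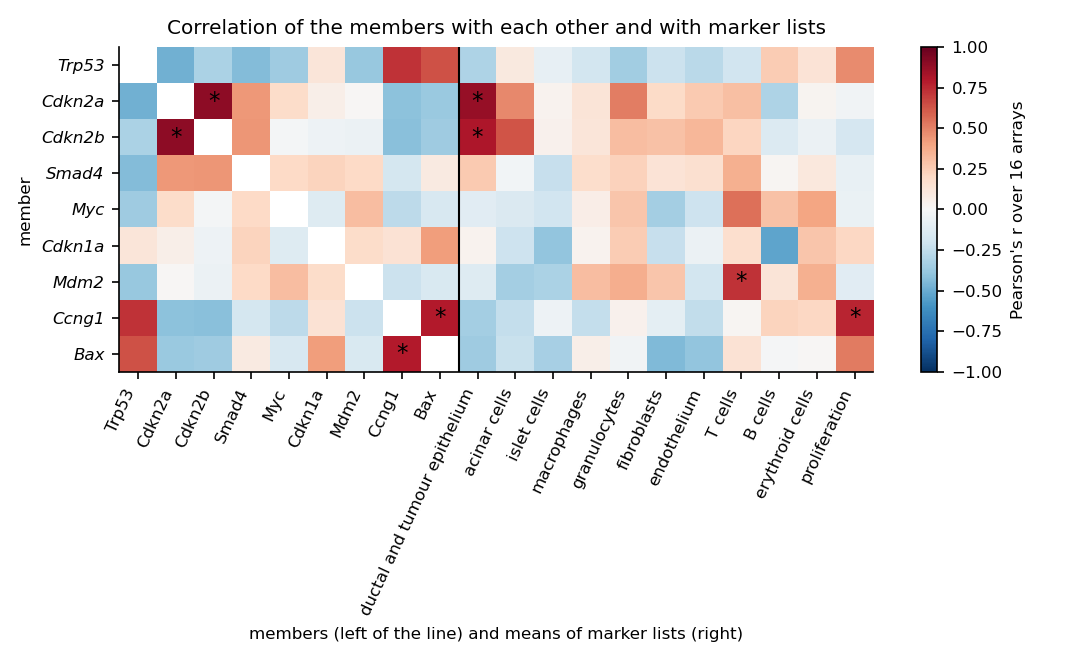
Colours give Pearson's r over 16 arrays between each member (rows) and the other members (left of the line) or the mean of each marker list (right of the line). Asterisks mark the 2 member pairs and 4 marker pairs with an adjusted permutation p under 0.05; the Cdkn2a and Cdkn2b rows share their pattern.

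Probes of one gene did not always vary alike. For Cdkn1a, a probe assigned to another transcript record, at chr17:29235299-29235358 (mm9, plus strand), spread over 4.28-fold between arrays where the brightest probe spread over 1.59-fold, and the 2 correlated at r = -0.133 (permutation p = 0.624, adjusted p = 0.836). The third Cdkn1a probe, placed at the other start of the gene some 9391 bases upstream, correlated with the brightest at r = 0.493 (permutation p = 0.0517, adjusted p = 0.224). The 2 Bax probes correlated at r = 0.599 (adjusted p = 0.0889), those of Myc at r = 0.425 (adjusted p = 0.328) and those of Mdm2 at r = 0.127 (adjusted p = 0.836). The 6 pairs of Smad4 probes ran from r = -0.0945 to 0.347, with adjusted permutation p from 0.50 to 0.875.

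The wider p53 pathway had no gene past the threshold either. Of 32 further p53 target genes 16 had a log2 change above 0 at 48 h and 14 at 10 days. Of all genes 47.6% and 46.8% lay above 0. In either comparison 0 of the 32 passed, nor did any at an unadjusted p under 0.05, where 2.38% and 3.38% of all genes did. The smallest p at 48 h was that of Dcxr (0.21 ± 0.11), followed by the sestrin Sesn1 (0.31 ± 0.18), and at 10 days that of Bbc3, the gene of the BH3 protein PUMA (0.44 ± 0.21). Between 10 days and 48 h Bbc3 again had the smallest p of the list, at 0.58 ± 0.22 (limma, adjusted p = 0.9997). In that comparison 1 of the 32 targets had an unadjusted limma p under 0.05, against 3.14% of all genes. Among 17 regulators and relatives of p53, Mdm4, which blocks p53 beside MDM2, differed by 0.22 ± 0.12 at 10 days and Atm, the kinase of the DNA break response, by -0.35 ± 0.22.

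Whether the members vary with their own pathways from array to array was looked at by the mean of each of 8 pathway lists. These means were added after the first values were seen. Of the 72 pairs of a member and a list mean, 11 passed an adjusted permutation p of 0.05 by r and 10 of them by rho as well. The share of all genes that correlate as closely with these means was not counted. Over all 16 arrays none of the 4 p53 targets, nor Trp53, passed with the mean of the 32 other p53 targets: r was 0.04 for Cdkn1a, 0.05 for Mdm2, 0.04 for Ccng1, 0.01 for Bax and 0.05 for Trp53 (permutation p from 0.844 to 0.959, n = 16). The sign was opposite on the 2 slides for Ccng1, at r = 0.691 on slide 1 and -0.878 on slide 2, and likewise for Trp53 (0.424 and -0.328) and Bax (0.406 and -0.325); the difference between slides was not tested. Ccng1 and Bax went with the mean of the 19 inhibitors and genes of the G1/S machinery. Ccng1 did so at r = 0.856 (permutation p = 1e-05, adjusted p = 0.00072; rho = 0.853, adjusted p = 0.0036), with 0.865 and 0.841 within the slides, 0.852 without the 2 farthest arrays, and no less than 0.843 without any single array. Bax did so at r = 0.782 (permutation p = 0.00017, adjusted p = 0.00612; rho = 0.718, adjusted p = 0.0274), with 0.742 and 0.798 within the slides and 0.681 without the 2 farthest arrays.

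The same 2 genes went with the mean of 18 MYC target genes, most of them for ribosome production, with Cdk4 standing in both lists: Ccng1 at r = 0.756 (adjusted permutation p = 0.00878) and Bax at r = 0.692 (adjusted permutation p = 0.0275). Myc itself did not pass with that list, at r = -0.155 (permutation p = 0.565), nor Smad4 with the TGF-beta list, at r = 0.162 (permutation p = 0.545). The lists overlap in part, since the p53 targets Bbc3 and Pmaip1 also stand in the BCL-2 family. Cdkn2a passed with the TGF-beta list (r = 0.693), the BCL-2 family (r = 0.689) and the p53 target list (r = 0.651), with adjusted permutation p of 0.0275, 0.0275 and 0.0446. In the authors' quantile-normalized values the last of these was r = 0.475. Cdkn2b passed with the BCL-2 family (r = 0.762, adjusted permutation p = 0.00878) and the MYC network (r = 0.658, adjusted permutation p = 0.0448). The remaining pairs were Ccng1 with the p53 regulators (r = 0.685) and Cdkn1a with the Cdkn2a repressors (r = 0.765), the latter at r = 0.539 in the authors' quantile-normalized values.

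Of the 19 other INK4/CIP inhibitors and genes of the G1/S machinery, 8 lay above 0 at 48 h and 4 at 10 days, where 47.6% and 46.8% of all genes did. Their median log2 change at 10 days was -0.10 against -0.01 for all genes. The mean of the list was 0.252, 0.282 and 0.335 on 10 days replicates 1 to 3, all on slide 1, and 0.525 and 0.473 on replicates 4 and 5, both on slide 2, against a vehicle mean of 0.438 and a vehicle range of 0.311 to 0.584. On 48 h replicate 4, also on slide 1, it was 0.303, likewise below that range. The 2 arrays below that range at 10 days, replicates 1 and 2, also had the lowest proliferation means of all 16, and the part of slide and proliferation in these values was not tested. Cdkn1c, the gene of p57KIP2, had a change of 0.57 ± 0.26 at 10 days (limma, adjusted p = 0.9995), while cyclin D1 (Ccnd1) had -0.33 ± 0.16 and its partner Cdk4 -0.24 ± 0.14. None passed the adjusted threshold.

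MYC target genes leaned the same way at 10 days: 14 of 18 lay below 0 and 4 above, where 46.8% of all genes lay above. Their median was -0.12 against -0.01 for all genes, and 0 passed. The mean of the list was 0.730, 0.741 and 0.861 on 10 days replicates 1 to 3, all on slide 1 and all below the vehicle range of 0.922 to 1.09, but 1.056 and 1.097 on replicates 4 and 5, both on slide 2. On 48 h replicate 4, also on slide 1, it was 0.793, likewise below that range. The proliferation mean was also lowest of the 16 arrays on replicates 1 and 2 (-0.534 and -0.465), and the part of slide and proliferation in the lean was not tested. Odc1, the polyamine enzyme and a textbook MYC target, had the smallest p of its list at 10 days, with -0.30 ± 0.11 (limma, adjusted p = 0.9995). Its vehicle and 10 day arrays did not overlap, as was so for 0.228% of all probes. At 48 h 11 of the 18 lay below 0 and 7 above, where 47.6% of all genes lay above. Of the 13 genes of the MYC network, 9 lay above 0 at 48 h and 8 at 10 days. The shares of all genes above 0 were 47.6% and 46.8%. In that network Mxd1, an antagonist that competes for MAX, differed by -0.28 ± 0.18 at 48 h and -0.33 ± 0.18 at 10 days.

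In the TGF-beta and SMAD pathway, upstream and downstream of Smad4, 12 of 22 genes lay above 0 at 48 h and 13 at 10 days. Of all genes 47.6% and 46.8% did. The ligand Tgfb2 had a change of 1.15 ± 0.43 at 48 h (limma, adjusted p = 0.9999) at a signal near the low end, -3.75 against -4.90 in vehicle. The activin receptor Acvr2a had 0.47 ± 0.21 at 48 h and 0.54 ± 0.21 at 10 days (limma, adjusted p = 0.9999 and 0.9995). At 10 days its p was the smallest of the list, and its arrays did not overlap with vehicle, as was so for 0.228% of all probes. Id3, a SMAD target, had -0.62 ± 0.35 at 48 h, while its mean at 10 days was -0.53, the same as in vehicle. The inhibitory Smad7, another SMAD target, had -0.40 ± 0.26 at 10 days.

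Of the BCL-2 family around Bax, 14 of 16 genes were measured. At each time 9 lay below 0 and 5 above, where 47.6% of all genes lay above at 48 h and 46.8% at 10 days. The 9 were not all the same genes, since Bbc3 lay below 0 at 48 h and above 0 at 10 days. Bik (0.88 ± 0.34) and Hrk (-0.53 ± 0.24), 2 BH3-only death activators, had the smallest p at 48 h (limma, adjusted p = 0.9999), both at low signals. Pmaip1, the gene of NOXA and another p53 target, had -0.17 ± 0.11 at 10 days.

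The genes most like each member over the 16 arrays, among 19494 named genes above background on every array, are given as a description. For Cdkn2a they were Pamr1 (r = 0.95), Hid1 (0.946) and Nckap1 (0.944), and for Cdkn2b Wnt7a (0.904), Cdkn2a itself and Cbs (0.881). For Trp53 they were Eif2a (r = 0.938), Set (0.928) and Anp32a (0.915), for Ccng1 Iah1 (0.933), Tmem168 and Gfm1, and for Bax Serf2 (0.928), Anapc11 and Dnajb11. Mdm2 was most like the kinase gene Tlk1 (r = 0.884), with the T cell gene Cd4 next (0.857). Myc was closest to Itfg2 (r = 0.911), Cdkn1a to Dnajb6 (r = 0.862), and Smad4 to Oog2 (r = 0.904), an oocyte gene at a low signal.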

How the data were processed

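Tumour cDNA was amplified, labelled with Cy5 and hybridised to 1-colour arrays, per the labels' protocols. The submitters' processing notes name Agilent Feature Extraction 11.5.1.1. The authors deposited its scanner files, whose processed signal is a background-subtracted linear intensity per the file headers. They also deposited a quantile-normalized table of log2 values, used as an alternative; its sorted columns differ by at most 0.0043. Here log2 of the intensity was taken, the 75th percentile of each array (6315 to 8473) subtracted, and spots of a probe averaged without control and outlier spots. Testing covered probes well above background on at least 5 of 16 arrays, by robust limma (version 3.58.1, R 4.3.3) with the 3 groups in 1 model and a threshold of 0.05. The script was tested on simulated data. Correlations used 2-sided permutation p-values (100000 permutations) with Benjamini-Hochberg adjustment within each family. Members and gene lists were chosen with earlier results of these data known, and single markers and pathway means were added after values were seen. Named genes are every member probe, up to 4 genes per pathway list and comparison with the smallest p, and the 3 genes most like each member; Mtap, Bmi1 and the single epithelial markers were named after their values were seen. Promoter stretches come from RefSeq (GRCm38.p6). Alternatives changed normalization, filter, probe choice, slide and arrays left out.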

Additional observations from a re-analysis of the deposited data

Results flagged for a closer look

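In 54 checks of a group of 5 or 6 arrays for 1 array far from the rest, 3 stood out, and chance gives about 1 in 20. Trp53 was 1.77 on 10 days replicate 1, against 2.51 to 2.72 on the other 4 arrays of that group. The same array was the lowest of 16 for Ccng1 and Bax. The dimmest Smad4 probe was -1.98 on 10 days replicate 3, against -1.19 to -1.01 on the others, while the 3 brighter Smad4 probes gave no such array. The dimmer Myc probe was 1.58 on 48 h replicate 5, against 0.793 to 0.998 on the others, while the brighter one read 2.77 there, within the range of its group.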

How the results depend on the processing

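No member gene, by its brightest probe, passed the threshold under any of the 11 other settings or 16 single arrays left out. Of 297 member changes under the 11 settings, 258 kept their direction and 39 did not, and the smallest adjusted limma p of all was 0.616; the cause was not tested. The log2 changes that turned are these. Within slide 1 they were Trp53 -0.0717, Smad4 0.0174, Cdkn1a 0.17, Bax -0.15 at 48 h, and Cdkn2a 0.52, Cdkn2b 0.79, Smad4 0.0246, Cdkn1a 0.0593, Mdm2 0.0523 at 10 days, and Cdkn2b 0.16, Smad4 0.0072 between 48 h and 10 days. With the authors' quantile-normalized table they were Trp53 -0.0147, Ccng1 0.0345, Bax -0.0191 at 48 h, and Cdkn1a 0.0193 between 48 h and 10 days. Within slide 2 they were Smad4 0.0881, Ccng1 0.11 at 48 h, and Trp53 0.14, Ccng1 0.30, Bax 0.0907 at 10 days, and Cdkn1a 0.25, Ccng1 0.18, Bax 0.0542 between 48 h and 10 days. With normexp and quantile normalization they were Trp53 -0.0082, Ccng1 0.0363, Bax -0.0352 at 48 h, and Mdm2 0.0038 at 10 days, and Cdkn1a 0.0136 between 48 h and 10 days. With the mean of a gene's probes they were Smad4 0.053, Bax -0.0857 at 48 h, and Cdkn1a 0.0527 between 48 h and 10 days. With slide as a block they were Smad4 0.0055, Ccng1 0.12 at 48 h, and Trp53 0.0011 at 10 days. Without both arrays that share an ID they were Trp53 -0.0769, Smad4 0.0032, Bax -0.006 at 48 h, and Cdkn2a 0.21, Cdkn2b 0.21 at 10 days. Leaving out 1 array turned 33 of 432 changes, and the ranges of those results follow. At 48 h they were, Trp53 from -0.0394 to 0.0458, Smad4 from -0.035 to 0.0287, Myc from -0.0036 to 0.18, Ccng1 from -0.0752 to 0.0669, Bax from -0.0721 to 0.0442. At 10 days they were, Trp53 from -0.16 to 0.0794, Cdkn2a from -0.63 to 0.21, Cdkn2b from -0.25 to 0.21, Mdm2 from -0.0785 to 0.0037. Between 48 h and 10 days they were, Trp53 from -0.17 to 0.0716, Cdkn1a from -0.0859 to 0.0123. The count of probes called in limma was 0 in each comparison (1168, 1635 and 1598 at an unadjusted p under 0.05, in the order 48 h, 10 days, 10 days against 48 h). It was 1 at 48 h and 1 at 10 days with no filter on dim probes, and 1 at 48 h and 4 between the treated groups when only the 2 groups compared were fitted. Without 1 array it was 0 to 1: 1 at 48 h and 1 between the treated groups without vehicle replicate 1 or 5, and 1 at 10 days without 10 days replicate 4. Pairs of members past the threshold numbered 1 to 3 without 1 array, against 2, and pairs with marker lists 2 to 4, against 4; the lowest came without 10 days replicate 1 (1 and 2) and without vehicle replicate 1 (2). Cdkn2a passed with Cdkn2b and with epithelium under all 20 alternatives run. No paired analysis was possible because replicate numbers are accession order only. Slide as a block called 0 probes in each comparison (1529, 1876 and 1637 at an unadjusted p under 0.05). Precision is limited by 5 or 6 arrays per group, by 1 vehicle array on slide 1 and by whole tumour RNA.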
